A study of Mus musculus with 24 samples.

Results

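The matrix metalloproteases (MMPs), the ADAM and ADAMTS proteases with their protease-free ADAMTS-like relatives, and the tissue inhibitors of metalloproteases (TIMPs) were described in heart RNA of mice that carry a human MYL2 transgene. Members were taken by gene symbol: every row of the polyA expression table whose name begins with Mmp, Adam or Timp and a number, or with Adamts. That gave 84 members among 23998 genes: 33 ADAM, 19 ADAMTS, 5 ADAMTS-like, 16 secreted MMP, 7 membrane-anchored MMP and 4 TIMP genes. Of these, 71 were above 0 in at least 1 library, and 42 had a mean of 1 or more FPKM (fragments scaled by transcript length and by mapped fragments, so a level per length) and were tested, beside 12980 genes tested in all.

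The study measured polyA RNA of 13 hearts taken at 4 months of age from transgenic mice on a CD1 background. MYL2 encodes the regulatory light chain of ventricular myosin. The labels give 4 groups: wtTg mice, with the normal human MYL2 allele, and control virus (3 hearts, called wild type below); mutTg mice, with the mutated human allele, left untreated (3); mutTg mice with control virus (3); and mutTg mice labelled as treated with shRNA (4). The virus was AAV9 given into the jugular vein at 3 days of age, carrying the M7.8L shRNA and a Cerulean marker in the shRNA group and lacking that shRNA in the control virus. The genotype field reads RLC-47K L6 for every sample, so the genotypes used here come from the titles. Which promoter drives the transgene and how many founder lines were used is not stated by the labels. Every group, the wild type included, carries a human MYL2 transgene, so no group stands for a heart without one. The wild type was measured with control virus, so untreated mutants differ from it in both genotype and virus.

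MMPs are zinc-dependent proteases, made as inactive precursors, that cut collagens, laminins and other matrix proteins. ADAMs are membrane proteins of which many release the outer part of other membrane proteins, ADAMTS proteases are secreted and cut proteoglycans or trim procollagens, and TIMPs block the active site of these enzymes. In the heart these genes are known for their part in the turnover of the collagen network by fibroblasts, vessel cells, macrophages and muscle cells.

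Whole libraries differed in scale. The median log2 ratio of a library to the others ran from -0.54 in untreated replicate 10 to 0.80 in shRNA replicate 8, and FPKM totals ran from 580948 to 1701499, so each count of members below is also given with the libraries aligned on that median, and the members whose call this changed are named. The read depth is unknown, so no counting error can be given. By the level of Ddx3y, a Y-linked gene, 0 of 3 mutants with control virus, 3 of 4 shRNA mutants (replicates 5 to 7), 2 of 3 wild types and 2 of 3 untreated mutants were male, so sex moves with the groups. The heart label was checked on 8 cardiomyocyte markers, which summed to 26236 to 115994 FPKM. Of these, Myh6, the adult heart myosin, was listed at 0 in wild-type replicate 2, untreated replicate 11 and mutant control-virus replicate 3 and at 3078 to 17461 in the other libraries, so a listed 0 need not be a measured absence. Replicates are separate animals by their names in the labels; litters and batches are not given.

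Promoter letters are shown for the tested members with a window that held the pattern TGANTCA, with close neighbours on chromosome 9 and Timp1 beside them. This pattern takes in TGAGTCA and TGACTCA, which the factor AP-1 is known to bind. It is wider than these, and the matches in Adam20, Adam25 and Mmp20 read TGAATCA. The pattern reads alike on both strands. It was searched from 250 bases before to 50 after each listed start (300 bases) in RefSeq build GRCm38.p6, which is not the mm9 build of the expression table. A gene with several starts was counted if any of its windows matched. Adam19 has 3 windows and Mmp12 has 2, and a matching one is shown. The pattern was found in 13 of 53 members with a promoter entry (24.5%) and in 2425 of 27025 genes (8.97%). Among tested members it was in 3 of 29 (10.3%, namely Mmp3, Mmp12 and Adam19), about as often as in all genes. The 300-base window of Timp1, the member with the largest difference below, held no match. Each line is 80 bases on the plus strand, ending 1 base before the start (for Adam19, 71 bases before it), with the pattern in capitals; these windows were picked after the matches were seen.
Mmp3, chr9:7445742-7445821: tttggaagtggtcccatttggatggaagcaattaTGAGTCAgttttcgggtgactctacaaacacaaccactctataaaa
Mmp10, chr9:7502262-7502341: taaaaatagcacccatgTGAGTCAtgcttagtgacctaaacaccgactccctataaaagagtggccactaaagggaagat
Mmp12, chr9:7347294-7347373: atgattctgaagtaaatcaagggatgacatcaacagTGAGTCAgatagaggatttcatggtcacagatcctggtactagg
Mmp13, chr9:7272434-7272513: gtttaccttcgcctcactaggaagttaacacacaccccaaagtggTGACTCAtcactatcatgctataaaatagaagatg
Adam19, chr11:46055834-46055913: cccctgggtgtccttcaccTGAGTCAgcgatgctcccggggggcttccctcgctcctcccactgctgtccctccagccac
Timp1, chrX:20870086-20870165: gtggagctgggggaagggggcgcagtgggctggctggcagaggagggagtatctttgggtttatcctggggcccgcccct
The 4 chromosome 9 genes shown hold the pattern at 35 (Mmp13), 44 (Mmp12), 46 (Mmp3) and 63 (Mmp10) bases before the start. Their mean FPKM over all libraries was 6.72 for Mmp3, 1.12 for Mmp12, 0.681 for Mmp13 and 0.0123 for Mmp10. Mmp1a, Mmp1b, Mmp7 and Mmp20 also held the pattern and are not shown. A link between the pattern and level was not tested.

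By mean FPKM over all libraries, the members of the highest level were Timp3 (139.4), Adamtsl5 (115.7), Timp2 (111.5), Mmp2 (98.5) and Adam9 (89.7). Listed at 0 in all libraries were 13 members: Adam6a, Adam6b, Adam18, Adam20, Adam24, Adam25, Adam26a, Adam26b, Adam34, Adam39, Adamts16, Mmp1a and Mmp1b. Whether such a 0 is a measured absence or a failed estimate is unknown. Mmp8, the neutrophil collagenase, was at 0.235 or less in every library, Mmp9, the gelatinase of white blood cells, lay between 0.326 and 1.63, Mmp13, a collagenase, between 0.0930 and 2.32, and Adam12, an ADAM of muscle and growing tissue, between 0.371 and 0.988. These 4 fell below the mean of 1 and were not tested.

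Between mutants with control virus and wild type, 14 of 42 tested members passed, at an adjusted p under 0.05 over all genes tested: 9 were higher and 5 lower in the mutants. Over all genes the shares called were 2.15% higher and 7.35% lower. With libraries aligned the members gave 16 higher and 6 lower, beside 12.6% and 11.7% of all genes, and the 14 calls were kept. Called only with libraries aligned were Timp2, Mmp11, Mmp19, Mmp23, Adam8, Adam9 and Adamts10, higher, and Adamtsl4, lower. Higher were the inhibitor Timp1, the collagenolytic pair Mmp2 and Mmp14, the procollagen protease Adamts2, Adamts8, Adamts19 and Adamts20, the sheddase Adam19 and Adamtsl2, a matrix protein without protease activity. Lower were Mmp15, Adamts3, Adamts7, Adam11 and Adam22.

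The counts moved with single libraries. Leaving out 1 library, the 14 fell to 4 without wild-type replicate 2 or mutant control-virus replicate 1, to 6 without mutant control-virus replicate 3 and to 7 without wild-type replicate 3 or 4, and rose to 23 (16 higher, 7 lower, beside 8.49% and 12.7% of all genes) without shRNA replicate 8, which enters this comparison only through the shared spread. Calls over all genes fell with them, from 1233 as deposited to 344 and 179, to 367, and to 328 and 369 in the same order. Timp1, Adamts7, Adamts19 and Adamts20 kept their calls in 7 of 7 such fits, Mmp14 in 5, Adamts2 in 4, Mmp15, Adamtsl2 and Adam22 in 3, Adam11 in 2, and Mmp2, Adam19, Adamts3 and Adamts8 in 1. With sex as a covariate 2 members passed, beside 126 of all genes: Adamts20 higher (adjusted p = 0.0444) and Adamts7 lower (adjusted p = 0.0300). With sex and without shRNA replicate 8 it was 19, among them all 14, beside 1340 of all genes.

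**Figure D1:**
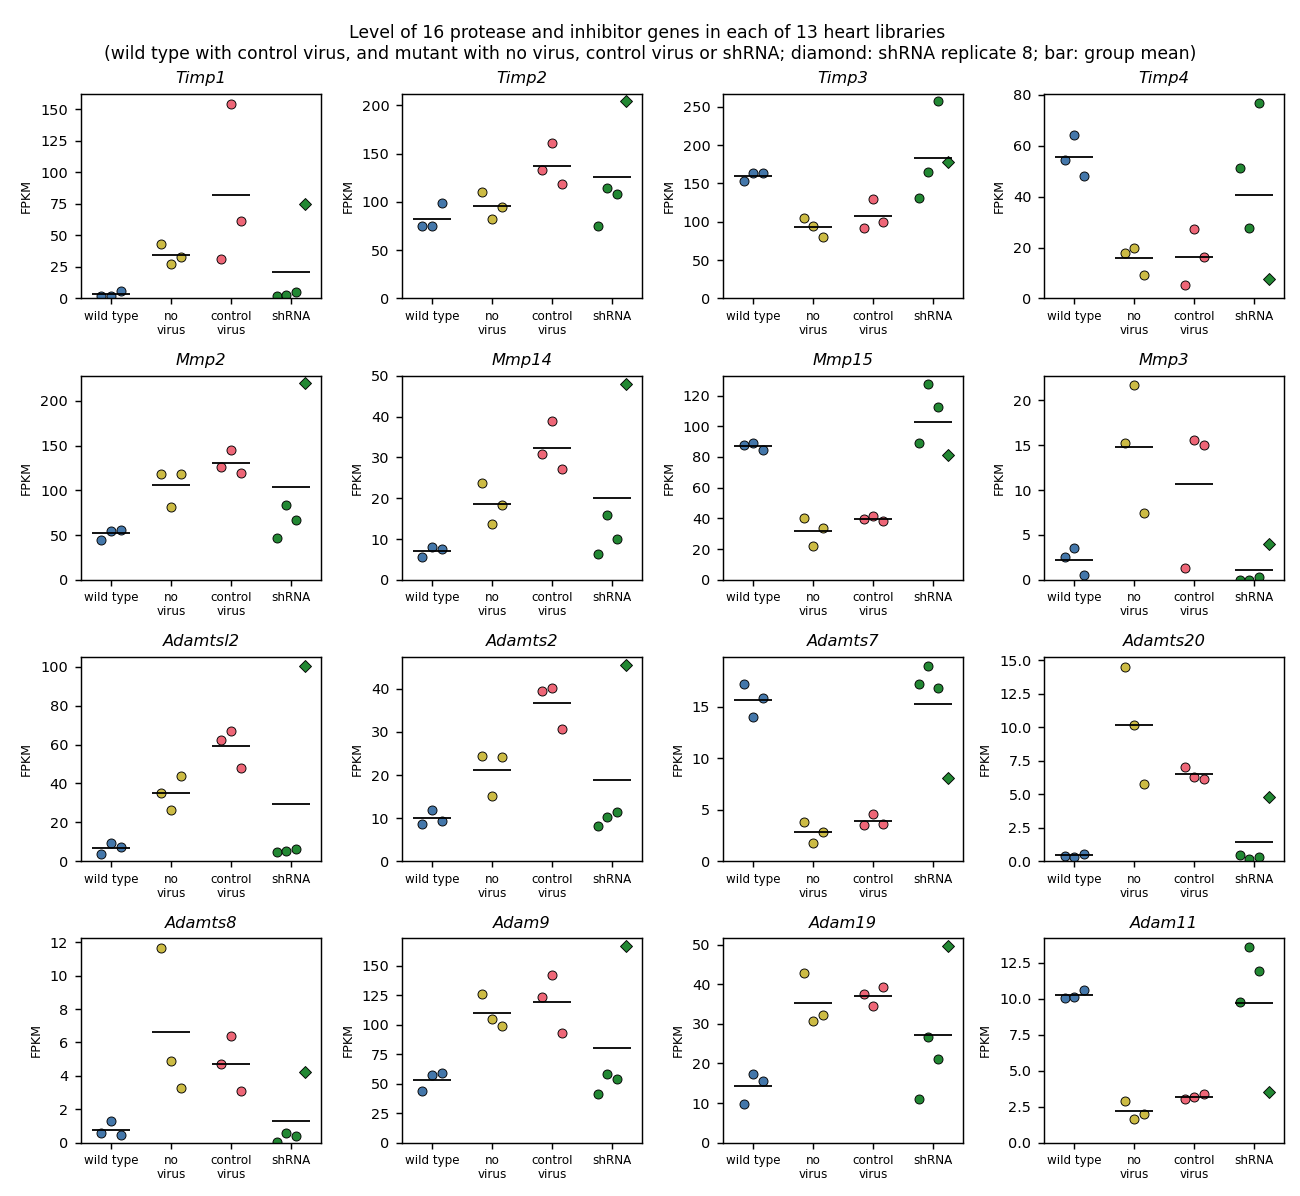
Level in FPKM (linear axes from 0) of 16 members in each of the 13 libraries, by group; points are libraries, the diamond is shRNA replicate 8 and bars are group means. For Timp1, Adamtsl2 and Adamts20 every mutant library without shRNA lies above every wild-type library, and the diamond lies nearer to them than to shRNA replicates 5 to 7.

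Among the inhibitors, Timp1, the TIMP that is known to be induced in injured tissue, had 1.86, 2.10 and 6.23 FPKM in the wild types and 31.6, 154 and 61.2 in mutants with control virus. Untreated mutants had 43.3, 27.3 and 32.5. Every mutant library without shRNA lay above the highest wild type. The difference from wild type on the log2(FPKM + 1) scale was 4.09 ± 0.85 (SE) with control virus (adjusted p = 0.00980). That call was kept in 16 of 18 alternatives, and lost with robust eBayes and with sex as a covariate (adjusted p = 0.0540). Untreated, the difference was 3.12 ± 0.85 (adjusted p = 0.0162). This call was lost with no filter on low values, with robust eBayes, and without wild-type replicate 2 or 3 or untreated replicate 10 or 11. The shRNA libraries had 1.92, 2.41 and 4.84 in replicates 5 to 7, within the wild-type range, and 74.8 in replicate 8, within the mutant range. Against mutants with control virus, shRNA libraries gave a log2 difference of -3.06 ± 0.80 (SE) and an adjusted p of 0.00835. The call was kept in 15 of 17 alternatives, and lost with robust eBayes and with sex as a covariate (-1.62, adjusted p = 0.0849). Without replicate 8 the difference was -4.13 (adjusted p = 2.03e-08), which sets male hearts against female ones.

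Timp4, an inhibitor known for its expression in heart muscle, went the other way in its levels. It had 54.3, 64.1 and 48 FPKM in wild types, 17.9, 19.9 and 9.29 in untreated mutants and 5.25, 27.2 and 16.5 in mutants with control virus, and these mutant libraries lay below the wild types. Against wild type, untreated mutants passed (-1.81 ± 0.61 (SE), adjusted p = 0.0444; 0.175 with libraries aligned, and lost when any of the 6 compared libraries was left out) and mutants with control virus did not (-1.95 ± 0.61 (SE), adjusted p = 0.0536; 0.000781 without shRNA replicate 8). In the shRNA group the levels were 51.4, 27.7, 76.7 and 7.51, with replicate 8 the lowest. Against mutants with control virus they gave a log2 difference of 1.12 ± 0.57 (SE) and an adjusted p of 0.131, and 1.75 (adjusted p = 0.00103) without replicate 8.

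Timp3, which is held in the matrix and also blocks ADAM and ADAMTS proteases, had 153, 164 and 164 FPKM in wild types, 105, 93.8 and 80.4 in untreated mutants, 92.5, 129.8 and 99.3 in mutants with control virus and 131, 165, 257 and 178 in shRNA libraries. It was lower in untreated mutants than in wild type (adjusted p = 0.0330), but not with libraries aligned (adjusted p = 0.152) or without any 1 wild type or untreated replicate 10 or 11. It was higher in shRNA libraries than in mutants with control virus (0.74 ± 0.23 (SE), adjusted p = 0.0225), again not with libraries aligned (0.23, adjusted p = 0.390) or without mutant control-virus replicate 1 or 3 or shRNA replicate 7. Timp2, which helps Mmp14 to activate the Mmp2 precursor, had 74.5, 74.9 and 98.9 in wild types and 133, 161 and 119 in mutants with control virus and did not pass (adjusted p = 0.125), though the groups did not overlap; with libraries aligned it was higher (adjusted p = 0.00716).

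The make-up of the TIMP sum shifted. Timp1 took 1.10% ± 0.746 (SD, n = 3) of the summed TIMP FPKM in wild types, 14.3% ± 1.84 (n = 3) in untreated mutants and 21.8% ± 10.3 (n = 3) in mutants with control virus, and Timp4 took 18.4% ± 3.02, 6.57% ± 2.32 and 4.44% ± 2.11. In shRNA replicates 5 to 7 the shares were 0.867% ± 0.188 for Timp1 and 15.3% ± 5.64 for Timp4, and in replicate 8 they were 16.1% and 1.61%. As deposited, the summed level of the TIMPs was 283.6 to 317 FPKM in wild types and 217 to 275 in untreated mutants. Untreated mutants lay below the wild types without overlap. The sum was 262 to 472 in mutants with control virus and 259.7 to 465 in shRNA libraries, which both overlapped the wild types. Library scale enters these sums, and it was low in untreated replicates 10 and 11 (median log2 ratio -0.54 and -0.47). With libraries aligned, the sums of wild types and untreated mutants overlapped. Their aligned means were 3.27 and 43.4 for Timp1, 81.3 and 122 for Timp2, 158 and 119 for Timp3, and 54.8 and 20.2 for Timp4. The ratio of summed MMP to summed TIMP FPKM was 0.613 ± 0.0202 in wild types, 0.914 ± 0.117 in untreated mutants, 0.833 ± 0.146 in mutants with control virus and 0.759 ± 0.209 (n = 4) in shRNA libraries. It is a ratio of RNA levels, with no test here.

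**Figure D2:**
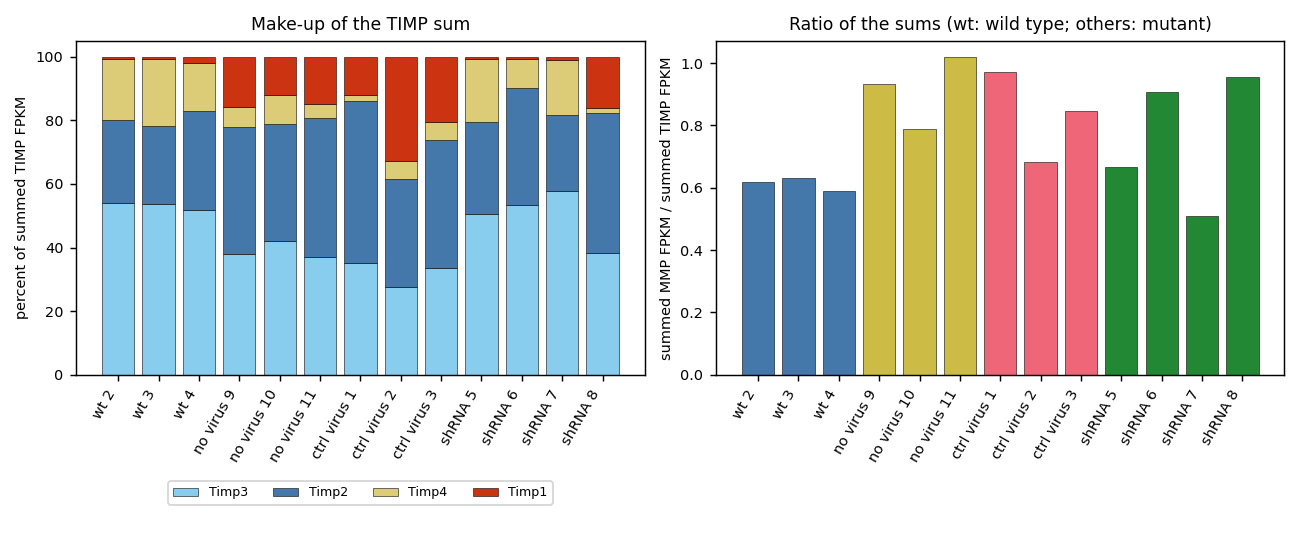
Left, percent of the summed TIMP FPKM taken by each of the 4 TIMP genes in each library; right, summed MMP over summed TIMP FPKM in each library. Timp1 takes 0.656% to 1.96% in wild types and 12% to 32.6% in mutants without shRNA, and shRNA replicate 8 has 16.1%.

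Among secreted MMPs, Mmp2, the gelatinase made by fibroblasts, had 45, 55.1 and 55.9 FPKM in wild types, 118, 81 and 119 in untreated mutants and 126, 145 and 119.7 in mutants with control virus. All mutant libraries without shRNA exceeded all wild types. The difference with control virus was 1.31 ± 0.39 (SE; adjusted p = 0.0406); untreated, it was 1.00 ± 0.39 (adjusted p = 0.0756; 0.00917 aligned). The call with control virus was lost when any 1 of wild types 2 to 4 or mutants 1 to 3 was left out, with adjusted p up to 0.298 over all settings. Libraries labelled shRNA had 46.5, 83.7, 66.4 and 219.6, and did not pass against mutants with control virus (adjusted p = 0.214), but did with libraries aligned (-1.08, adjusted p = 0.0188) and without replicate 8 (-1.02, adjusted p = 0.00194).

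Mmp3, the stromelysin that cuts many matrix proteins, had 2.52, 3.50 and 0.580 FPKM in wild types and 15.2, 21.7 and 7.47 in untreated mutants, which did not overlap. Mutants with control virus had 1.30, 15.6 and 15, of which replicate 1 lay within the wild types. It passed for untreated mutants (2.32 ± 0.69 (SE), adjusted p = 0.0249) and not with control virus (adjusted p = 0.170). The call was lost without untreated replicate 9 or 10 or wild-type replicate 4. The shRNA libraries were listed at 0, 0, 0.334 and 4.04. Their difference from mutants with control virus was -2.40 ± 0.65 (SE; adjusted p = 0.0100) and kept its call in 6 of 7 fits that left out 1 library, lost without mutant control-virus replicate 3. Against wild type, Mmp3 was lower with sex as a covariate and without shRNA replicate 8 (adjusted p = 0.0186), which it was not in the fit over all libraries (adjusted p = 0.409).

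The other tested secreted MMPs did not pass as deposited in any comparison. Mmp12, the macrophage elastase, had 0.162, 0.0581 and 0.0675 FPKM in wild types and 0.781, 1.84 and 0.873 in mutants with control virus, with 6.37 in shRNA replicate 8, the highest library, and adjusted p of 0.236 between the first groups (0.0114 without shRNA replicate 8). Mmp11, a protease of stroma, and Mmp19, made by many cell types, gave 0.486 and 0.203, and both were higher with libraries aligned (0.0431 and 0.0178).

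Among membrane-anchored MMPs, Mmp14, which cuts collagen at the cell surface and activates the Mmp2 precursor, had 5.53, 7.96 and 7.60 FPKM in wild types, 23.8, 13.6 and 18.3 in untreated mutants and 31, 39 and 27.1 in mutants with control virus. None of the mutant libraries without shRNA overlapped the wild types. With control virus the difference was 2.05 ± 0.46 (SE; adjusted p = 0.0138), lost without wild-type replicate 2 or mutant replicate 1. The 4 shRNA levels were 6.32, 15.9, 10.1 and 47.9, and the difference from mutants with control virus was -1.04 ± 0.43 (adjusted p = 0.0701; -1.57 with adjusted p = 6.70e-05 without replicate 8). With libraries aligned Mmp14 was lower there (-1.53, adjusted p = 0.0157).

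Mmp15, another membrane-type MMP, was the highest MMP of the wild type and fell below it in the mutants. It had 87.8, 88.9 and 84.3 FPKM in wild types, 40.3, 21.9 and 33.9 in untreated mutants and 39.4, 41.8 and 38.2 in mutants with control virus, with no overlap. The log2 differences from wild type were -1.11 ± 0.25 (SE; adjusted p = 0.0126) with control virus and -1.46 ± 0.25 (adjusted p = 0.00145) untreated. The call with control virus was kept in 12 of 18 alternatives and lost with sex, with the replicate block and without wild-type replicate 2 or 3 or mutant replicate 1 or 3; the untreated one was kept in 17 of 17. With shRNA the libraries had 88.9, 128, 113 and 81.2, every one above every mutant without shRNA as deposited. Replicate 8 was the lowest of the 4 and, unlike for most members, was nearer the wild type as deposited, though not when aligned. With libraries aligned it was at 46.8, below untreated replicate 11 (47.0) and mutant control-virus replicate 3 (48.4), so the groups overlapped. The difference from mutants with control virus was 1.32 ± 0.23 (adjusted p = 0.000909) and kept its call in 17 of 17 alternatives. As shares of summed MMP FPKM, Mmp15 took 47.2% ± 2.72 (SD, n = 3) in wild types and 14.6% ± 1.39 (n = 3) in mutants with control virus, and Mmp2 took 28.1% ± 2.10 and 47.5% ± 2.07.

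Mmp23, which has a membrane-anchored precursor, had 11.2, 12.1 and 12.9 FPKM in wild types and 31.6, 43.1 and 25.3 in mutants with control virus, and 7.10, 11.5, 6.77 and 38.5 in shRNA libraries. It did not pass against wild type with control virus (adjusted p = 0.0618; 0.0141 aligned), and was lower in shRNA libraries than in mutants with control virus (-1.34 ± 0.42 (SE), adjusted p = 0.0211; lost without mutant control-virus replicate 1 or 2 or shRNA replicate 6 or 7). Mmp24, known from nervous tissue, was higher in shRNA libraries (6.37, 12.2, 6.72 and 9.12 against 3.79, 4.81 and 4.19; adjusted p = 0.0144), but not with libraries aligned (adjusted p = 0.0857) or without mutant control-virus replicate 1 or 3 or shRNA replicate 6. It overlaps the more highly expressed BC029722, and strand use in counting is not given.

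Among ADAMTS proteases, the lead in size was Adamts20, known to cut the proteoglycan versican. It had 0.411, 0.338 and 0.563 FPKM in wild types, 14.5, 10.2 and 5.79 in untreated mutants and 7.06, 6.28 and 6.12 in mutants with control virus, all without overlap. The differences from wild type were 2.38 ± 0.46 (SE; adjusted p = 0.00749) with control virus and 2.88 ± 0.46 (adjusted p = 0.00116) untreated. The shRNA libraries had 0.429, 0.147, 0.293 and 4.77: replicates 5 to 7 lay at wild-type level and replicate 8 just below the mutants. Against mutants with control virus the difference was -2.0 ± 0.43 (adjusted p = 0.00272), without overlap, and was kept in 16 of 16 alternatives.

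Adamts7, which cuts the matrix protein Comp, moved opposite to it. It had 17.2, 14 and 15.8 FPKM in wild types and 3.84, 1.74 and 2.86 in untreated mutants, while mutants with control virus had 3.49, 4.54 and 3.57. The log2 differences were -1.78 ± 0.30 (SE; adjusted p = 0.00453) and, untreated, -2.16 ± 0.30 (adjusted p = 0.000592), kept in 18 of 18 and 17 of 17 alternatives. Libraries labelled shRNA had 17.2, 19 and 16.8 in replicates 5 to 7, within or above the wild-type range. Replicate 8 had 8.05, between the groups as deposited. With libraries aligned it was at 4.64, next to the 2.53 to 4.52 of mutants without shRNA and below the wild types, at 13.4 to 18.4. The shRNA libraries gave a log2 difference of 1.68 ± 0.28 (SE) and an adjusted p of 0.000736 against mutants with control virus.

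Adamts2 and Adamts3, which trim procollagens, differed in opposite directions. Adamts2 had 8.71, 11.9 and 9.31 FPKM in wild types and 39.4, 40.3 and 30.7 in mutants with control virus (1.79 ± 0.43 (SE), adjusted p = 0.0170), while Adamts3 had 2.43, 2.53 and 3.20 and 0.734, 0.685 and 0.978 (-1.05 ± 0.27 (SE), adjusted p = 0.0250). Neither pair of groups overlapped. The Adamts2 call was lost without wild-type replicate 2 or 4 or mutant replicate 1; that of Adamts3 was kept in 9 of 17 alternatives and lost with sex, with the replicate block and when any of the 6 compared libraries was left out. In shRNA libraries Adamts2 had 8.08, 10.2, 11.3 and 45.5 and Adamts3 3.72, 3.90, 6.03 and 2.54, which gave -1.27 ± 0.40 (adjusted p = 0.0222) and 1.45 ± 0.26 (adjusted p = 0.000980) against mutants with control virus. Of these, the Adamts2 call was lost without shRNA replicate 6 or 7 or any 1 mutant with control virus; that of Adamts3 was kept in 16 of 16 alternatives.

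Adamts8 and Adamts19 were low in wild types, at 0.602, 1.27 and 0.469 and 0.461, 0.398 and 0.360 FPKM. Adamts8, which cuts proteoglycans, had 11.7, 4.90 and 3.26 in untreated mutants and 4.72, 6.38 and 3.07 with control virus, and differed by 1.97 ± 0.49 (SE; adjusted p = 0.00991) and 1.67 ± 0.49 (adjusted p = 0.0403) from wild type. The call with control virus was lost when any of its 6 compared libraries was left out. Adamts19, a protease of little known targets, had 2.16, 3.15 and 1.89 with control virus and 1.26 ± 0.26 (adjusted p = 0.00996). In shRNA libraries Adamts8 had 0.0610, 0.556, 0.384 and 4.24 and Adamts19 0.561, 0.994, 0.823 and 1.42, and both were lower than in mutants with control virus (adjusted p = 0.0150 and 0.0197; both lost without mutant control-virus replicate 1 or 2).

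Of the proteoglycan-cutting enzymes studied most, Adamts1, Adamts4, Adamts5 and Adamts9, 0 passed between mutants and wild type as deposited (adjusted p with control virus 0.959, 0.293, 0.904 and 0.831). Adamts5 was higher in shRNA libraries than in mutants with control virus (13.4, 17.6, 12.5 and 19.7 against 9.61, 13.5 and 5.65 FPKM; adjusted p = 0.0426), although its groups overlapped, and not with libraries aligned (adjusted p = 0.278) or without shRNA replicate 8 (0.0587) or 6 or mutant control-virus replicate 1 or 3. Adamts1 had 26.6, 31.5, 69.1 and 20.5 against 20.3, 20.4 and 14.8 and did not pass (adjusted p = 0.0513; 0.00479 without replicate 8). The values of Adamts4 are uncertain, since its extent overlaps that of another gene.

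Among ADAMTS-like genes, Adamtsl2, which binds fibrillin microfibrils, had 3.80, 9.38 and 7.41 FPKM in wild types, 35.2, 26.5 and 44 in untreated mutants and 62.1, 66.9 and 48.2 in mutants with control virus. The differences were 2.99 ± 0.72 (SE; adjusted p = 0.0176) and, untreated, 2.25 ± 0.72 (adjusted p = 0.0359), with no overlap. Both calls were lost with no filter on low values and with robust eBayes. With control virus the call was also lost without wild-type replicate 2 or 4 or mutant replicate 1 or 3, and untreated when any of the 6 compared libraries was left out. In shRNA libraries it had 4.69, 5.44 and 6.50 in replicates 5 to 7 and 100.2 in replicate 8, the highest of all libraries as deposited. With libraries aligned replicate 8 was at 57.7, below the 60.9 to 70.8 of mutants with control virus. Against mutants with control virus the difference was -2.20 ± 0.68 (adjusted p = 0.0196), and -3.19 (adjusted p = 1.58e-09) without replicate 8. That call was lost without mutant control-virus replicate 1 or 3 or shRNA replicate 6 or 7. Adamtsl4, which also binds fibrillin, had 57.5, 62.6 and 59.5 in wild types and 45, 20.0 and 26.8 in untreated mutants, and was lower there (adjusted p = 0.0208; lost without any 1 wild type or untreated replicate 10 or 11). The much higher Adamtsl5, at 91.8, 116 and 95.9 in wild types and 107, 167 and 108 with control virus, overlapped and did not pass (adjusted p = 0.655).

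Among ADAMs, the sheddase Adam19, which can release neuregulins, had 9.69, 17.4 and 15.5 FPKM in wild types, 43, 30.8 and 32.2 in untreated mutants and 37.5, 34.5 and 39.4 in mutants with control virus. The differences were 1.36 ± 0.37 (SE; adjusted p = 0.0302) and 1.28 ± 0.37 (adjusted p = 0.0221), with no overlap, and the first was lost when any of its 6 compared libraries was left out, the second without any 1 untreated mutant or wild-type replicate 2 or 4. The shRNA libraries had 10.9, 26.7, 21.1 and 49.6 (adjusted p = 0.161 against mutants with control virus; 0.0157 aligned). Adam9, a widely expressed sheddase, had 43.7, 56.9 and 58.6 and 123, 142 and 92.4 without overlap, yet missed the threshold (adjusted p = 0.0592; 0.00907 aligned).

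Adam11 and Adam22, relatives without protease activity that are known from nervous tissue, were lower in mutants with control virus. Adam11 had 10.1, 10.1 and 10.6 FPKM in wild types and 3.03, 3.18 and 3.36 with control virus (-1.43 ± 0.34 (SE), adjusted p = 0.0164), and Adam22 had 5.54, 5.76 and 2.96 and 1.19, 1.53 and 1.66 (adjusted p = 0.0196). Both calls were lost without wild-type replicate 2 or 3 or mutant replicate 1 or 3, and that of Adam11 also without wild-type replicate 4. In shRNA libraries Adam11 had 9.79, 13.6 and 11.9 in replicates 5 to 7, next to the wild types, and 3.48 in replicate 8, next to the mutants, with a log2 difference of 1.22 ± 0.32 (SE) and an adjusted p of 0.00839 against mutants with control virus (0.120 with libraries aligned). The main sheddases did not pass in any comparison as deposited: with control virus against wild type, adjusted p was 0.928 for Adam10, which cuts Notch receptors, 0.846 for Adam17, which releases Tnf, 0.895 for Adam15 and 0.124 for Adam8 of white blood cells (0.0255 aligned).

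**Figure D3:**
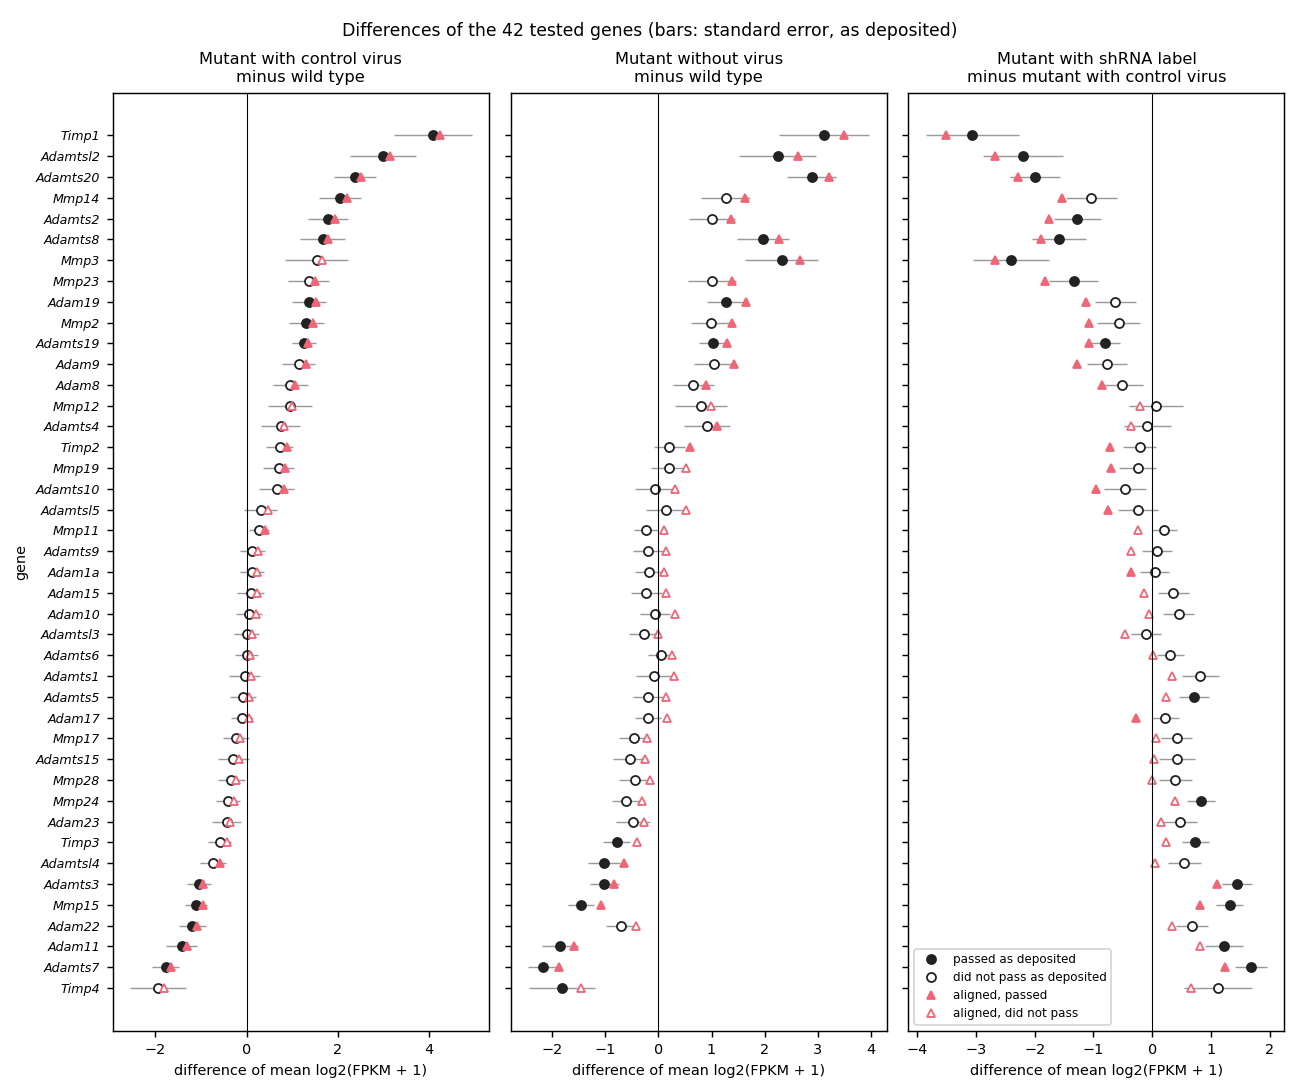
Difference of mean log2(FPKM + 1) for the 42 tested members in 3 comparisons, ordered by the first; circles are values as deposited with standard errors, triangles values with libraries aligned, and filled symbols passed. The first panel runs from -1.95 (Timp4) to 4.09 (Timp1).

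Untreated mutants gave 14 calls against wild type, 7 higher and 7 lower, where 1.54% of all genes were higher and 19.2% lower. With libraries aligned the members split into 15 higher and 5 lower and all genes into 12% and 13.8%; 12 of the 14 calls were kept, and Timp3 and Timp4 were lost. Called only with libraries aligned, all higher, were Timp2, Mmp2, Mmp14, Mmp23, Adam8, Adam9, Adamts2 and Adamts4. Without shRNA replicate 8 there were 15 higher and 8 lower (5.22% and 25.8% of all genes). The count fell to 5 without untreated replicate 10, to 8 without untreated replicate 11 or wild-type replicate 2, to 9 without wild-type replicate 3 and to 7 without wild-type replicate 4. Over all genes 2690 passed as deposited and 1070, 1334, 1770, 1393 and 1286 in these fits. Mmp15, Adam11, Adamts7, Adamts8 and Adamts20 kept their calls in 7 of 7 such fits, Adamts19 in 6, Adamts3 in 5, Mmp3 in 4, Timp1 in 3, Timp3, Adamtsl4 and Adam19 in 2, and Timp4 and Adamtsl2 in 1.

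The comparison of mutants with control virus and untreated mutants addresses the control virus within 1 genotype. By limma 0 of 42 members passed, beside 0% of all genes higher and 0% lower. A limma p under 0.05 without adjustment was reached by 1 member (Mmp11, higher with control virus) and by 4.41% of all genes. The smallest adjusted p was 0.771. Fitted on these groups alone, 1 member passed, Timp1, higher with control virus, beside 181 of the 12980 genes. The groups differ in sex, and a p that misses the threshold does not show that they were alike.

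Between shRNA libraries and mutants with control virus, 15 of 42 members passed, 7 higher and 8 lower, where 33.4% of all genes were higher and 1.66% lower. Higher were Mmp15, Mmp24, Adamts3, Adamts5, Adamts7, Adam11 and Timp3, and lower were Timp1, Mmp3, Mmp23, Adamts2, Adamts8, Adamts19, Adamts20 and Adamtsl2. The median log2 difference was 0.07 over the members and 0.47 over all genes. With libraries aligned the members gave 3 higher (Mmp15, Adamts3 and Adamts7) and 19 lower, beside 11.9% and 12.2% of all genes, with medians of -0.32 and 0.00460, and 11 of the 15 calls were kept. Timp3, Mmp24, Adamts5 and Adam11 were lost. Called only with libraries aligned, all lower, were Timp2, Mmp2, Mmp14, Mmp19, Adam8, Adam9, Adam19, Adamts10, Adamtsl5, and Adam1a and Adam17, whose differences as deposited were 0.04 and 0.22 and so turned sign. The count fell to 7 without mutant control-virus replicate 1 and to 9 without its replicate 3 (all genes, from 4545 to 2335 and 2055), and it rose to 23 without shRNA replicate 8 (9 higher, 14 lower; 30.4% and 8.94% of all genes); without that library and aligned it was 30 (7 higher, 23 lower; 24.2% and 23.9%). With sex as a covariate 6 passed (Mmp3, Mmp15, Mmp24, Adamts3, Adamts7 and Adamts20), beside 2624 of all genes. In fits that left out 1 library, Mmp15, Timp1, Adamts3, Adamts7, Adamts20 and Adam11 kept their calls in 7 of 7, Mmp3 in 6, Adamts8 and Adamts19 in 5, Timp3 and Mmp24 in 4, Adamtsl2, Mmp23 and Adamts5 in 3 and Adamts2 in 2. Mutants with control virus are all female and shRNA replicates 5 to 7 all male, so the part of sex cannot be told apart within those libraries.

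Shared libraries enter these comparisons, so the values stand side by side only. Of the 14 members called between mutants with control virus and wild type, shRNA replicates 5, 6 and 7 lay nearer the wild-type mean for 14, 11 and 14, and replicate 8 for 3 (Mmp15, Adamts3 and Adamts7). With libraries aligned the counts were 14, 13, 14 and 1 (Adamts19). Untreated replicates 9, 10 and 11 lay nearer the mutants with control virus for 14, 11 and 13. The group means of the mutants with control virus and of wild type also chose these 14 members.

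**Figure D4:**
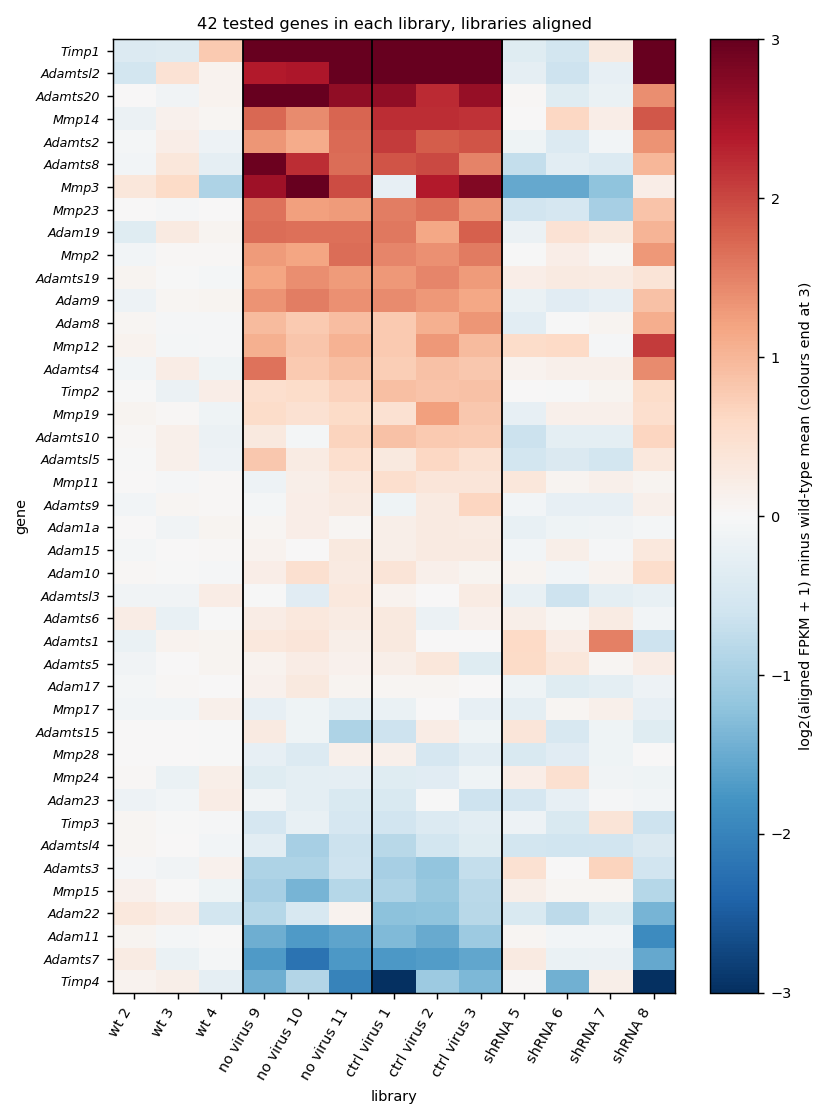
Log2(FPKM + 1) of the 42 tested members in each library after alignment, minus the wild-type mean (red higher, blue lower; colours end at 3). The columns of shRNA replicates 5 to 7 are pale like the wild types for most members, and shRNA replicate 8 lies nearer the mutants with control virus for 13 of the 14 members called between them and wild type.

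Against wild type, by limma 0 of 42 members passed for shRNA libraries, beside 0.108% of all genes higher and 0% lower. Aligned it was 0 again, beside 0.0308% and 0.0539%. An unadjusted p under 0.05 was reached by 6 members, all higher, and by 15.6% of all genes. The smallest adjusted p of a member was 0.310. Log2 differences were 1.03 ± 0.80 (SE) for Timp1, -0.09 ± 0.28 for Adamts7, 0.21 ± 0.23 for Mmp15 and 0.79 ± 0.68 for Adamtsl2, so for Timp1 and Adamtsl2 the error leaves room for a sizeable difference. Without shRNA replicate 8 the value for Timp1 was -0.05 and for Adamtsl2 -0.20. Without that library and aligned 2 members were lower, Mmp23 (adjusted p = 0.0171) and Adamtsl4 (adjusted p = 0.0496), beside 324 of all genes lower and 411 higher.

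Markers of other cell types moved with these groups. The sum of 9 fibroblast markers was 969 to 1398 FPKM in wild types, 2050.1 to 2637 in untreated mutants, 2449 to 3844 in mutants with control virus, 1067 to 1985 in shRNA replicates 5 to 7 and 4918 in replicate 8. For 9 macrophage markers the ranges were 459 to 510.2, 809 to 1054, 1043 to 1940.2 and 366 to 732, with 2747 in replicate 8. The largest part was Lyz2, at 219 to 241 in wild types and 472 to 1060 in mutants without shRNA. Cd163 went the other way, at 9.71 to 12.3 in wild types, 7.40 to 8.98 in untreated mutants and 2.56 to 7.24 with control virus. For 5 smooth muscle markers the ranges were 205 to 367, 405 to 702, 704 to 1081 and 96.9 to 156, with 1163. The smooth muscle sum was mostly Acta2, an actin also made by activated fibroblasts, at 117 to 278 in wild types and 649 to 1012 in mutants with control virus. Myh11, a smooth muscle myosin, went the other way, at 14.1 to 15.8 and 5.87 to 8.01, as did Tagln and Myocd. Cardiomyocyte markers ran 51054 to 72192, 26236 to 41364, 31847 to 49190.1 and 73026 to 115994, with 68103; the lowest of each of the first 3 ranges is the library with Myh6 listed at 0. With libraries aligned replicate 8 had 39220, within the 36333 to 44934 of mutants without shRNA and below the wild types, at 54639 to 69000.4. Aligned, its fibroblast sum was 2832, below the 3098 to 3511 of mutants with control virus. Its smooth muscle sum was 670, below their 802 to 987, and its macrophage sum was 1582, within their 1188 to 1772. Endothelial markers (6) summed to 401 to 466 in wild types, 249 to 316 in untreated mutants, 237 to 333 in mutants with control virus and 455 to 747 in shRNA libraries. With libraries aligned these ranges were 429 to 437, 333 to 408, 299 to 374 and 430 to 494. The 7 neutrophil and mast cell markers summed to 3.21 to 7.26, 7.21 to 16.3, 9.76 to 18.0 and 24.1 to 32.9. Its mast cell genes Cma1, Mcpt4 and Cpa3 had 3.74 to 6.24, 3.03 to 14.2 and 2.39 to 3.36 in shRNA libraries. Mutants without shRNA had 0.464 to 2.27, 0.657 to 3.62 and 0 to 2.05. The neutrophil genes S100a8, S100a9 and Csf3r overlapped, at 1.92 to 4.69, 0.926 to 7.66 and 0.234 to 3.92 in shRNA libraries. Mutants without shRNA had 0.873 to 6.33, 1.38 to 2.82 and 1.10 to 3.21. The sum of mesothelial markers was lower in wild types, at 3.19 to 6.07, than in mutants without shRNA, at 16.9 to 35.5. It ran 7.27 to 35.1 in shRNA libraries. The largest part in mutants without shRNA was the keratin Krt18, at 11.98 to 17.9 there and 1.01 or less in wild types. Wt1 did not differ in this way, at 2.31 to 3.72 in wild types and 2.39 to 3.56 in mutants without shRNA. Upk3b and Msln were mixed, with untreated replicate 9 within the wild types for both. None of these lists had a marker at 0 in all libraries, and their part in the results was not tested. In whole hearts, fewer cells of a type and less RNA per cell cannot be told apart.

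Fixed lists of other genes of the same pathway were counted beside the members. Of 22 tested matrix substrates, 10 were higher and 0 lower in mutants with control virus than in wild type, beside the 2.15% and 7.35% of all genes given above. Aligned it was 16 and 0, beside 12.6% and 11.7%. The median log2 difference as deposited was 1.27 against -0.14 over all genes. Thbs1, a matricellular protein, had 2.01, 3.06 and 2.99 FPKM in wild types and 20.3, 27.7 and 15.3 with control virus, and Col3a1, a fibrillar collagen, 48.4, 66.9 and 70.6 and 357, 525 and 346. Their differences were 2.56 ± 0.44 (SE; adjusted p = 0.00453) and 2.69 ± 0.46 (adjusted p = 0.00453). Comp, the substrate of Adamts7, had 1.06, 1.79 and 3.22 and 29.8, 15.7 and 11.5 (adjusted p = 0.00570), and Tnc, a matrix protein of remodelling tissue, 0.357, 0.513 and 0.664 and 3.47, 9.10 and 4.72 (adjusted p = 0.0117). Of the same 22, 4 were higher and 0 lower in untreated mutants, beside 1.54% and 19.2% of all genes (15 and 0 aligned, beside 12% and 13.8%). In shRNA libraries against mutants with control virus 2 were higher and 7 lower, beside 33.4% and 1.66% of all genes (0 and 15 aligned, beside 11.9% and 12.2%). Col1a1, Col1a2, Col3a1, Dcn and Postn also stand among the fibroblast markers.

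Of 21 tested genes that activate or inhibit matrix proteases, 3 were higher and 0 lower in mutants with control virus, beside 2.15% and 7.35% of all genes. Aligned it was 10 and 0, beside 12.6% and 11.7%, and the median log2 difference as deposited was 0.38. Among the 3 were the cathepsins Ctsk (6.25, 8.28 and 12.6 FPKM in wild types and 28.1, 32.9 and 24.1 with control virus, adjusted p = 0.0235) and Ctss (adjusted p = 0.0270). Against mutants with control virus, shRNA libraries gave 2 higher and 1 lower, of which the share higher is below the 33.4% of all genes. Aligned it was 1 and 10, beside 11.9% and 12.2%. Higher as deposited were Bsg, an inducer of MMPs (adjusted p = 0.00312), and the plasminogen activator Plau (adjusted p = 0.0167). Bsg was also the 1 gene of these 21 lower in untreated mutants than in wild type (adjusted p = 0.00655), where 19.2% of all genes were lower.

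Of 21 tested partners and substrates of ADAM sheddases, 1 was higher and 0 lower in mutants with control virus, beside 2.15% and 7.35% of all genes. Aligned it was 7 and 0, beside 12.6% and 11.7%. The 1 as deposited was Tgfa, an EGF receptor ligand, at 0.648, 1.27 and 1.31 FPKM in wild types and 5.75, 4.27 and 4.45 (adjusted p = 0.0336). In untreated mutants Hbegf, another such ligand, was higher (adjusted p = 0.0328), and Tspan33, a partner of Adam10, and Notch1, its substrate, were lower (adjusted p = 0.00963 and 0.0243). These were the 1 higher and 2 lower of the 21, beside 1.54% and 19.2% of all genes, so the share lower is below that of all genes. In shRNA libraries against mutants with control virus 5 were higher and 1 lower, a share higher that is below the 33.4% of all genes. Among them was Tspan15, another Adam10 partner (3.76, 4.88 and 2.53 with control virus and 7.63, 14.1, 7.58 and 12.9 with shRNA; adjusted p = 0.00302). Aligned, 2 were higher and 9 lower, beside 11.9% and 12.2% of all genes.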

How the data were processed

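PolyA RNA of 13 hearts in 4 groups was analysed; the small RNA table, which holds no member, was not used. The authors deposited FPKM, 1 column per library. FastQC 0.11.2, STAR 2.40, Cufflinks 2.2.1, Cuffdiff and mouse build mm9 are named per the submitters' processing notes, without their roles. Not given in the sources used here: annotation, filters, scaling between libraries and read depth. Counting precision is therefore unknown.

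Testing was limited to genes averaging 1 FPKM or more over all libraries, taken as log2(FPKM + 1) in 1 model over the 4 groups with limma 3.58.1 in R 4.3.3 (lmFit, eBayes with a trend, two-sided), with Benjamini-Hochberg adjustment over all 12980 genes and a threshold of 0.05. A fold change on this scale understates that of low genes. The procedure was tested on simulated data. To align libraries, each was divided by its median ratio over genes above 0 in every library. Sex was read from Ddx3y, with over 5 FPKM called male. The other alternatives were another pseudocount, other filters, quantile normalization, the compared groups alone, robust eBayes, a replicate block and leaving out each library.

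The members, lists, tests and alternatives were chosen with earlier results of these data known. Named are members that passed, at most 10 per comparison by smallest p; a fixed set of 28 members; the 5 of the highest level; those at 0 in all libraries; and at most 4 genes per pathway list. Mmp17, Mmp23, Adam1a and Adamts10 are named outside that rule, after their values were seen. The values of some genes that are no members are not reported here. All 84 symbols matched RefSeq symbols. ADAMs were kept as 1 group, since no protein sequences were used. By RefSeq gene extents, 9 tested members overlap another coding gene (Timp1 with Syn1, Timp3 with Syn3, Timp4 with Syn2, Adam17 with Iah1, Mmp23 with Mib2, Mmp19 with Tmem198b, Mmp24, Mmp28 and Adamts4), and without strand in the counting reads of such pairs cannot be told apart.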

Additional observations from a re-analysis of the deposited data

Results flagged for a closer look

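Within the 4 shRNA libraries, 5 of 42 tested members had 1 library whose gap to the nearest other library on the log2(FPKM + 1) scale, as a share of the group's range, exceeded Dixon's 95% value for 4 samples; chance flags about 1 in 20 groups. In 4 of the 5 that library was replicate 8. How often all genes were flagged, and in which library, was not counted, so these flags need not be particular to the members. Levels are given in FPKM, on which the ratios differ. Adamtsl2 was at 100.2 FPKM there and at 4.69 to 6.50 in replicates 5 to 7, Adamts20 at 4.77 and 0.147 to 0.429, Adamts4 at 4.04 and 0.302 to 0.549, and Adamts7, which was low, at 8.05 and 16.8 to 19. Mmp17, a membrane-anchored MMP, was at 1.53 FPKM in replicate 5 and at 3.03 to 3.38 in the others. Replicate 8 is also the 1 female among the 4 and has the highest library scale; the part of either was not tested. The groups of 3 libraries were not checked in this way.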

How the results depend on the processing

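The number of members that passed moved with the processing, in the same direction for every call made as deposited. Between mutants with control virus and wild type, 14 became 22 with libraries aligned or quantile normalization and 24 with the compared groups alone. It became 26 without shRNA replicate 8 and aligned, 8 with no filter on low values and 2 with sex as a covariate. Over all genes, 1233 became 3150 (aligned), 3386 (quantile), 3597, 5146, 796 and 126 in the same order. For untreated mutants, 14 became 9 with no filter, 24 with the compared groups alone, 22 with sex and without shRNA replicate 8, and 25 without it and aligned. All genes went from 2690 to 2398, 5134, 3764 and 5157. Between shRNA libraries and mutants with control virus, 15 became 9 with the compared groups alone, 6 with sex and 30 without shRNA replicate 8 and aligned. All genes went from 4545 to 2406, 2624 and 6247. For shRNA libraries against wild type 0 became 1 (with sex, without replicate 8) or 2 (without it and aligned), where all genes went from 14 to 211 or 735. For control virus against no virus 0 became 1 with the groups alone, where all genes went from 0 to 181. Leaving out 1 library gave 4 to 23 members for mutants with control virus against wild type and 5 to 23 for untreated mutants against wild type. It gave 7 to 23 for shRNA against control virus, and 0 in each such fit for the other comparisons. Over all genes the first 3 of these ranges were 179 to 2755, 1070 to 4022 and 2055 to 7164. The cause of these moves was not tested; dropping a library also leaves fewer samples.

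Reversed in sign for shRNA against control virus, and not called as deposited, were Adamtsl5 (0.0569), Timp2 (0.17), Mmp2 (0.0107) and Adamts10 (0.0299) with sex; Adam17 aligned (-0.28), with quantile normalization (-0.30), with sex and without replicate 8 (-0.0248) and without it and aligned (-0.30); Adam1a under the same settings (-0.36, -0.22, -0.0805 and -0.38) and, with libraries left out in turn (-0.0946 to 0.20), without mutant control-virus replicate 1 or 3 or shRNA replicate 8; and Mmp19, with libraries left out in turn (-0.50 to 0.0655), without mutant control-virus replicate 2 or shRNA replicate 5. With a replicate block on the libraries numbered 2 and 3, 14 members passed between mutants with control virus and wild type (11 higher, 3 lower), beside 797 of all genes. Of the 14 calls 10 were kept, and Mmp2, Mmp15, Adam19 and Adamts3 were lost. The deviations of same-numbered libraries correlated at -0.196 and -0.107, and the labels give no shared batch, so they share only a number. No depth is given, so its limit on low members is unknown.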
